A study of Mus musculus with 42 samples.

Results

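Conventional CD4+ T cells (Tconv) were compared 8 h and 2 h after an injection of KT3, a monoclonal antibody against the CD3 chains of the T cell receptor. The comparison rests on the arrays that the labels title as Tconv in vivo at 8 h and at 2 h, numbered 1 and 2 at each time, and thus on 4 of the 42 arrays of the series. The mice of the in vivo arrays were NOD females of 8 weeks. They carried a Foxp3-IRES-GFP reporter, in which cells that express Foxp3 also make green fluorescent protein. KT3 was injected intravenously, and Tconv were sorted from the spleen as CD4+ cells that lacked GFP, B220, CD8a, CD11b and CD11c. The same study holds Tconv at 0, 24 and 72 h and regulatory T cells (Treg, sorted as GFP+) at the same times, and these are used below as baseline, follow-up and comparison. Control (IgG) arrays of Tconv and of Treg at 24 h were also in the fit and in the choice of tested genes, but are not compared. Arrays of cultured cells entered only an alternative fit of all 42 arrays. They came from older mice, whose age differed between replicate numbers 1 and 2. No uninjected or control-injected mice at 2 or 8 h were analysed here, so that time of day and handling cannot be told apart from the step. The labels describe each sample as coming from a treated mouse without saying that arrays 1 and 2 came from separate animals. If they did not, the p-values cover technical spread alone, and with 2 arrays at each time the precision of every value is limited.

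Ligation of CD3 starts calcium, MAP kinase and NF-kB signalling, and immediate early genes such as the Egr, Fos and Nr4a families are known to be transcribed within an hour without new protein synthesis. Their products, together with MYC and IRF4, are known to drive a later programme of cytokine production, metabolism, ribosome assembly and entry into the cell cycle, while inhibitors such as A20 and IkBa limit the first wave. The step between 2 and 8 h spans the passage between these phases, and the question put to it was which early genes had already fallen back and which genes were first raised after 2 h.

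Values are log2 of the normalized intensity, so that a difference of 1 is a doubling, and errors are standard errors of the difference from the limma fit (2 arrays at each time). A gene was called where its adjusted p from limma (Benjamini-Hochberg over 11536 genes) was under 0.05. At 8 h 3233 genes (28.0% of those tested) differed from 2 h, of which 2444 were higher (21.2%) and 789 lower (6.84%). A change of at least 2-fold was seen in 437 genes that were higher (3.79%) and in 203 that were lower (1.76%). All 3233 moved the same way in array pair 1 and array pair 2, and in 3119 of them the 8 h and 2 h arrays did not overlap. The call itself favours both outcomes, and no share over all tested genes was counted, so that neither count is separate support. The median step over all tested genes was 0.08. It was 0.20 after median centring of the arrays, and genes that were higher then made up 86.2% of the calls, against 75.6% as deposited and 60.7% after quantile normalization. Tconv arrays of the same number deviated together at all 5 times, and the number was kept as a block. The number of calls was 2218 with no replicate block and 5134 with a block of its own in each cell type. Leaving out 1 array left 2136 calls (2 h number 2), 2090 (8 h number 1) or 1665 (8 h number 2). In RNA from a pool of sorted cells, fewer cells that express a gene and less of its RNA per cell cannot be told apart. The plot of early change against step shows where the classes described next lie.

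**Figure D1:**
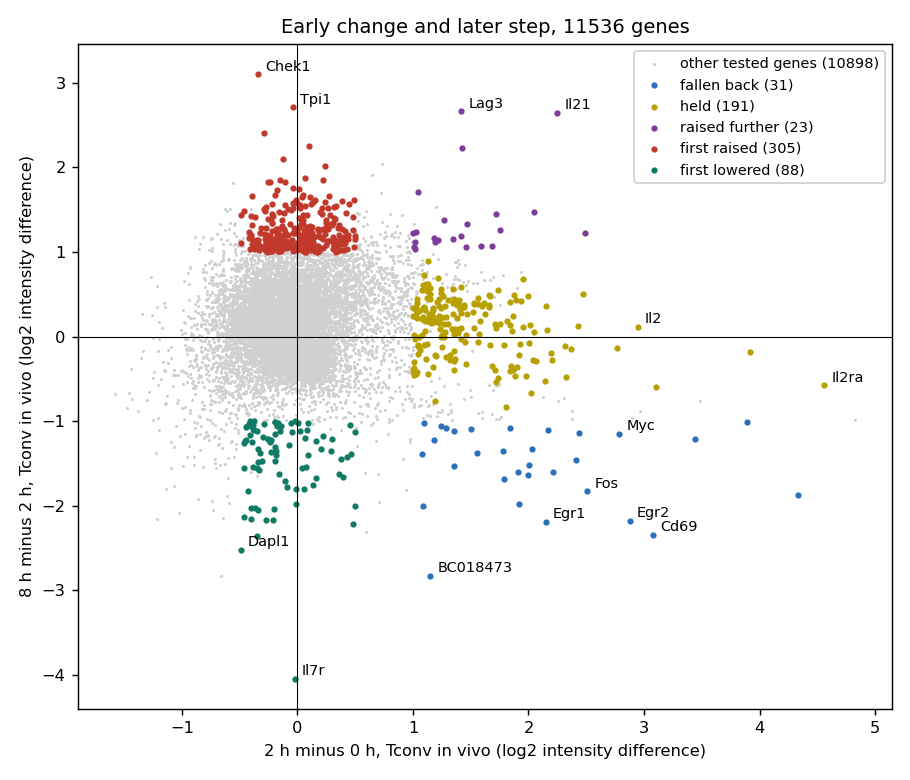
Each point is 1 of 11536 tested genes, with its 2 h minus 0 h difference on the x axis and its 8 h minus 2 h difference on the y axis, both in log2 intensity and as means over 2 arrays per time, and coloured points are the classes. Both axes contain the 2 h arrays with opposite sign, so that their slope is no result. Il7r lies lowest at -4.04 and Chek1 highest at 3.10 on the y axis.

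At 2 h 1728 genes differed from 0 h (15%), and 349 of the 949 that were higher (8.23%) were so by at least 2-fold. These 349 early genes form the first group of interest. By 8 h 31 of them had fallen back, which is used here for a called fall of at least 2-fold between 2 and 8 h. A further 48 showed a smaller called fall, 191 were held (no called step), 56 showed a smaller called rise and 23 were raised further by at least 2-fold. Of the 349, 304 were still called higher at 8 h than at 0 h, a comparison that called 39.8% of all genes (25.4% higher and 14.4% lower). Their median rise at 2 h was 1.36 and their median step 0.18. Because both differences use the 2 h arrays, these counts describe the genes and do not test a link between the rise and the fall. The threshold separates near neighbours: Nr4a1 lies just inside it with a step of -1.01 and Itm2a just outside with -0.99. The count of fallen-back genes was 50 after quantile normalization, with 29 of the 31 among them, and 55 without 2 h number 2, with 30 of the 31 among them.

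The genes that fell back furthest include Cd69, an activation antigen that holds T cells in lymphoid tissue, and the zinc finger transcription factors Egr1, Egr2 and Egr3. Cd69 read 9.53 and 9.90 at 8 h, against 11.95 and 12.16 at 2 h. The step was -2.34 ± 0.24 (adjusted p = 3.16e-05), a 5.07-fold fall, which left 24.0% of the early log2 rise. Egr1 read 7.24 and 7.28 at 8 h, against 9.49 and 9.41 at 2 h, with a step of -2.19 ± 0.21 (adjusted p = 2.3e-05). Arrays of each gene at 8 h all lay below those at 2 h, and Egr1 at 8 h was within the 0 h values of 7.19 and 7.41. Egr2 read 8.47 and 8.67 at 8 h, against 10.86 and 10.64 at 2 h (step -2.18 ± 0.28, adjusted p = 0.000133). Egr3 read 7.58 and 8.02 at 8 h, against 9.72 and 9.85 at 2 h (step -1.98 ± 0.19, adjusted p = 1.87e-05). Neither Egr1 nor Egr3 was called different from 0 h at 8 h (differences -0.04 and -0.07), and Egr2 missed the threshold there (0.70, adjusted p = 0.061).

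Fos, the partner of JUN in AP-1, read 7.48 and 8.02 at 8 h, against 9.72 and 9.43 at 2 h (step -1.83 ± 0.29, adjusted p = 0.000582). The orphan nuclear receptor Nr4a3 read 8.91 and 9.26 at 8 h, against 10.87 and 11.04 at 2 h (step -1.87 ± 0.34, adjusted p = 0.00119), and its 8 h level was still 2.46 above 0 h. Fos and Nr4a3 thus shared the direction, but Nr4a3 kept 56.8% of its early log2 rise and Fos 27.0%. Nr4a1, a reporter gene of T cell receptor signalling, read 11.77 and 12.09 at 8 h, against 12.97 and 12.90 at 2 h, and its step of -1.01 ± 0.32 lost its call without 2 h number 1 (-0.75), 8 h number 1 (-1.04) or 8 h number 2 (-0.97). Nr4a2, which missed the class with an early rise of 0.98, had a step of -1.25 ± 0.17 (adjusted p = 0.00023).

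Of the 25 tested early T cell receptor response factors, 16 fell, 2 were higher and 7 were not called, with a median step of -0.91 against 0.08 over all genes. The count of members that fell stayed within 1.5 times of 16 without any 1 of the 4 arrays. Irf8, an interferon regulatory factor, read 9.75 and 9.63 at 8 h, against 11.19 and 10.61 at 2 h, and was in the fallen-back class (step -1.21 ± 0.18). Irf4, which scales T cell activation with signal strength, lay just short of a 2-fold fall, with 10.27 and 10.51 at 8 h, against 11.48 and 11.27 at 2 h (step -0.99 ± 0.19, adjusted p = 0.00164). Irf4 nevertheless stood 3.84 above 0 h at 8 h. Myc, which drives growth and metabolism, read 10.74 and 10.98 at 8 h, against 12.27 and 11.74 at 2 h, and remained 1.64 above 0 h. Its step of -1.15 ± 0.29 lost its call without 2 h number 1 (-0.83) or 8 h number 1 (-1.03). Fosl1, a later-acting FOS relative, was one of the 2 members that were higher, with 6.66 and 6.74 at 8 h, against 6.05 and 6.21 at 2 h. Its call was lost without 2 h number 2 (0.56) or 8 h number 1 (0.52), and its 2 h arrays lay below the array median.

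**Figure D2:**
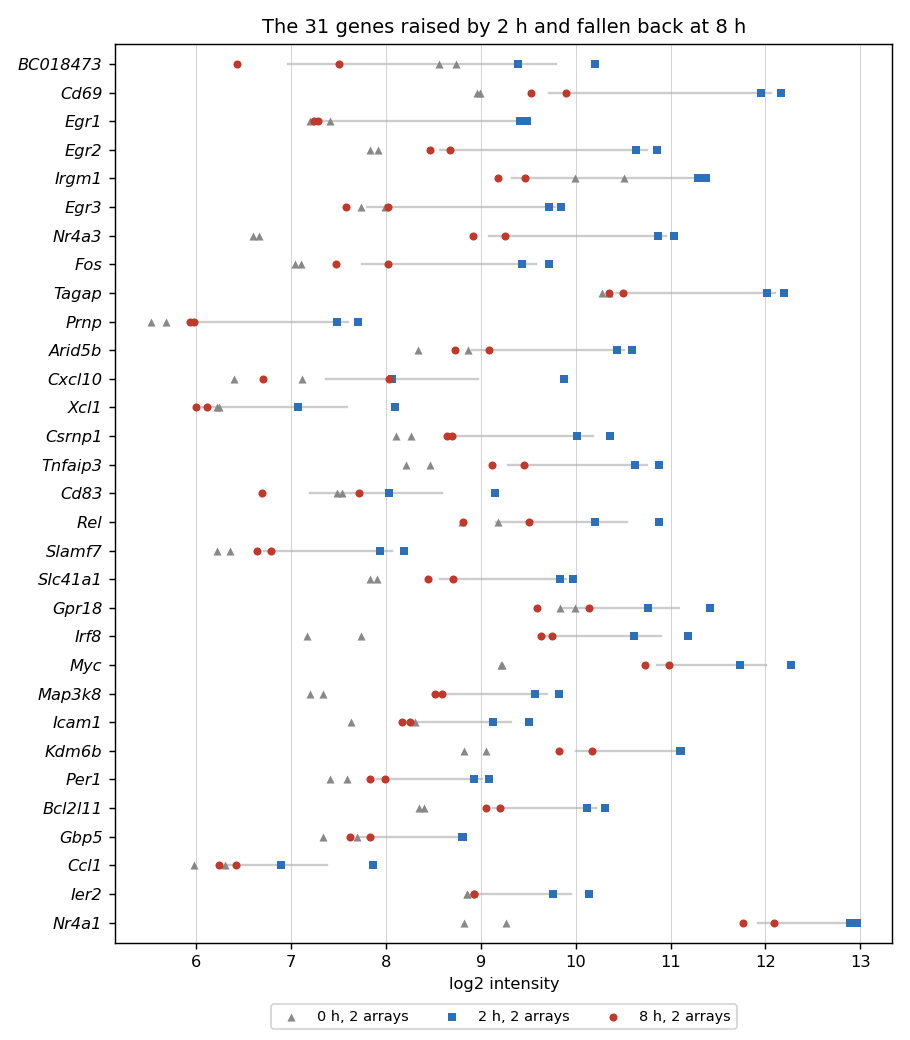
Each row is 1 of the 31 fallen-back genes, ordered by step, with the log2 intensity of each array on the x axis at 0 h (grey triangles), 2 h (blue squares) and 8 h (red circles). The 8 h points of Cd69 lie at 9.53 and 9.90, above the 0 h points at 8.96 and 8.99, while those of Nr4a1 at the bottom, at 11.77 and 12.09, stay far above 0 h.

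NF-kB targets and inhibitors fell as well. Of 19 tested members of the NF-kB list 12 fell, none was higher and 7 were not called (median step -0.58), and the count that fell was 6 without 2 h number 1. Tnfaip3, which encodes the ubiquitin-editing inhibitor A20, read 9.12 and 9.45 at 8 h, against 10.62 and 10.87 at 2 h (step -1.46 ± 0.16, adjusted p = 4.22e-05). Rel, the c-Rel subunit, read 8.82 and 9.51 at 8 h, against 10.20 and 10.88 at 2 h (step -1.37 ± 0.22, adjusted p = 0.000506). In both genes the groups did not overlap, and Rel at 8 h was not called different from 0 h (0.18). Icam1, an adhesion molecule, fell by 1.11 and Nfkbia, which encodes the inhibitor IkBa, by 0.73. Nfkb2 and Relb, the subunits of the alternative pathway, were held: Nfkb2 read 10.25 and 10.21 at 8 h, against 10.34 and 9.93 at 2 h, and the groups overlapped.

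Of 5 tested chemokine genes 3 fell and 2 were not called. Xcl1, which attracts XCR1+ dendritic cells, read 6.11 and 5.99 at 8 h, against 8.09 and 7.07 at 2 h (step -1.53 ± 0.23, adjusted p = 0.000338). Ccl1, a ligand of CCR8, read 6.41 and 6.24 at 8 h, against 7.87 and 6.89 at 2 h, and its step of -1.06 ± 0.22 was -0.63 without 2 h number 1. The interferon-inducible Cxcl10 read 8.03 and 6.70 at 8 h, against 9.87 and 8.06 at 2 h (step -1.60 ± 0.36), and its call was lost without 2 h number 1 (-0.95) or 8 h number 2 (-1.22). These are among the dimmer fallen-back genes, and array 1 was the higher at both times in all 3. At 8 h the arrays of Xcl1 and Ccl1 lay below the array median.

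The fallen-back class also holds genes outside these lists. BC018473, an annotated transcript to which no function is given here, had the largest fall of the class, with 7.50 and 6.43 at 8 h, against 10.20 and 9.39 at 2 h (step -2.83 ± 0.29, adjusted p = 3.15e-05). Irgm1, an interferon-inducible GTPase, read 9.47 and 9.18 at 8 h, against 11.38 and 11.28 at 2 h (step -2.00 ± 0.21, adjusted p = 3.16e-05). These were the 2 of the 31 that were called below 0 h at 8 h (differences of -1.68 and -0.92). Of the other members 10 were still above 0 h and 19 were not called. Tagap, a gene known from activated T cells, read 10.35 and 10.50 at 8 h, against 12.02 and 12.20 at 2 h, and ended within 0.11 of 0 h.

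Promoter windows from RefSeq (GRCm38.p6, 250 bases before to 50 after the annotated start) are shown for some fallen-back genes with large steps, because these genes moved together. Each window shown held one of 6 searched motifs. The choice of windows to show did not cover every chromosome, so that a gene not shown, with a larger step, may hold a motif too. Capitals mark the motif found: CACGTG, the E-box of MYC and its relatives, in Egr2 (chr10:67535249-67535548, plus strand), TGANTCA, an AP-1 motif, in Irgm1 (chr11:48871371-48871670, minus strand) and GCGNGGGCG, an EGR motif read here on the reverse strand, in Tagap (chr17:7925750-7926049, plus strand).
Egr2: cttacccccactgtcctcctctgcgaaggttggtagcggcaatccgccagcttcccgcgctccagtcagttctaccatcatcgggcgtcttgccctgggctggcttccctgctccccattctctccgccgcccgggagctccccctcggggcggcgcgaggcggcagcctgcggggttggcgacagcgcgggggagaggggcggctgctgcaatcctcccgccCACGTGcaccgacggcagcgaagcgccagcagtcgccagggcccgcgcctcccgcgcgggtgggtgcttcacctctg
Irgm1: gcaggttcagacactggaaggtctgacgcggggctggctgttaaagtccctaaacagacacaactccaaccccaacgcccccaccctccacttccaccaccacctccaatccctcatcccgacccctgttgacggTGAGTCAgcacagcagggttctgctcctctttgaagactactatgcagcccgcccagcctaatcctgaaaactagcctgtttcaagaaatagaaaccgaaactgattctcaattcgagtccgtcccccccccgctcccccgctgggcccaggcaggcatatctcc
Tagap: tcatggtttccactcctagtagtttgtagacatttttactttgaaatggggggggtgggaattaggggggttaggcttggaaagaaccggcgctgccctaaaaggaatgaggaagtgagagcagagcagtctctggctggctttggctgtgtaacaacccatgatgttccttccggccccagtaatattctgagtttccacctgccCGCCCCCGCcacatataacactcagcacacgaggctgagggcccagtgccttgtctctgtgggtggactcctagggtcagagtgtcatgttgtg

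Windows were found for 22 of the 31 genes, 33 windows in all. TGANTCA was present in 18.18% of them, against 7.81% of the 32851 windows of all genes, and GCGNGGGCG in 12.12%, against 5.55%. CACGTG was in 9.09%, against 7.15%, and the kappa B motif bound by NF-kB in 3.03%, against 0.41%. The cyclic AMP response element TGACGTCA was in none of them, against 1.79%. The CArG box, the serum response factor motif, was in 12.12%, against 1.63%, but all 4 of those windows belong to 1 gene. All motifs were searched on both strands. A match is a run of letters and no measured binding site, and the counts in the class are small.

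The 191 held genes include cytokine and growth factor signalling genes. Il2, the T cell growth factor, read 7.33 and 8.46 at 8 h, against 7.98 and 7.58 at 2 h, so that the groups overlapped (step 0.11 ± 0.29, adjusted p = 0.789). Lif, a cytokine of the IL-6 family, read 8.57 and 8.36 at 8 h, against 8.77 and 7.91 at 2 h (step 0.13 ± 0.22), and Ifng 7.31 and 7.78 at 8 h, against 8.12 and 7.68 at 2 h (step -0.36 ± 0.21). Each of these was 1.55 (Ifng) to 3.06 (Il2) above 0 h at 8 h. Il2ra, the alpha chain of the high-affinity IL-2 receptor, was added for its pairing with Il2 after its values were seen, and read 9.59 and 10.13 at 8 h, against 10.49 and 10.38 at 2 h (step -0.58 ± 0.30, adjusted p = 0.167). A step that was not called does not show that a level stayed the same.

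Across the cytokine list 11 of 21 tested members fell, 2 were higher and 8 were not called (median step -0.58). The count that fell was 5, 4 and 3 without 2 h number 1, 8 h number 1 and 8 h number 2, and 7 with no replicate block. Tnf read 10.00 and 10.29 at 8 h, against 11.05 and 10.65 at 2 h, and its step of -0.71 ± 0.18 lost its call without 2 h number 1 (-0.38), 8 h number 1 (-0.66) or 8 h number 2 (-0.76). Ltb, which encodes lymphotoxin beta, was not among the early genes and fell, with 9.98 and 9.45 at 8 h, against 11.34 and 10.59 at 2 h (step -1.25 ± 0.17, adjusted p = 0.000184). Csf2 was below the array median on all 4 arrays. It was not tested because it lay above the median on fewer than 2 of the 22 in vivo arrays. It read 5.21 and 4.77 at 8 h, against 6.61 and 6.01 at 2 h.

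Among 22 tested feedback inhibitors of signalling, 8 fell, 2 were higher and 12 were not called (median step -0.10), and 4 fell without 2 h number 1. Dusp5, a phosphatase of nuclear ERK, was held, with 10.11 and 10.53 at 8 h, against 10.35 and 10.13 at 2 h. Spry1, an inhibitor of RAS signalling, was held too, with 8.67 and 9.24 at 8 h, against 8.93 and 8.86 at 2 h. The 8 h and 2 h arrays of both genes overlapped, and both were over 2 above 0 h (2.24 and 2.11). Dgka, which removes diacylglycerol and keeps resting cells quiet, continued to fall, with 11.09 and 11.14 at 8 h, against 11.85 and 12.25 at 2 h (step -0.93 ± 0.14, adjusted p = 0.000326). Nab2, a corepressor of EGR proteins, read 9.27 and 9.34 at 8 h, against 10.25 and 9.94 at 2 h, and its fall of -0.79 ± 0.18 was not called without 2 h number 1 (-0.57).

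Genes of the IL-2 receptor, STAT5 and SOCS list fell more often than they rose. Of 12 tested members 8 fell, 1 was higher and 3 were not called (median step -0.58), and 5 fell without 2 h number 1, 8 h number 1 or 8 h number 2. Pim1, a survival kinase induced by STAT5, read 10.28 and 10.67 at 8 h, against 11.46 and 11.41 at 2 h (step -0.96 ± 0.14, adjusted p = 0.000277). It had risen by 1.09 at 2 h and at 8 h stood 0.13 above 0 h, without a call. Cish, a SOCS-family inhibitor of cytokine signalling, read 9.09 and 9.41 at 8 h, against 10.14 and 9.82 at 2 h (step -0.73 ± 0.23, adjusted p = 0.0305). Its level remained 1.58 above 0 h, and the call of its step was lost without 2 h number 1 (-0.55), 8 h number 1 (-0.56) or 8 h number 2 (-0.90).

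Factors that bind AU-rich elements and shorten the life of mRNAs, among them those of many cytokines, moved in both directions: of 12 tested members of the RNA decay list 4 fell, 3 were higher and 5 were not called (median step 0.01). The count that fell was 2 with no replicate block, and none was higher without 8 h number 2. Zfp36l2, of the tristetraprolin family, read 9.54 and 9.76 at 8 h, against 11.10 and 11.43 at 2 h (step -1.62 ± 0.14, adjusted p = 1.22e-05). Its relatives Zfp36l1 and Zfp36, the founding member, fell by 0.89 and 0.79. Elavl1, the stabilising factor HuR, read 10.94 and 11.13 at 8 h, against 10.45 and 10.34 at 2 h (step 0.64 ± 0.14, adjusted p = 0.00493). The call of Elavl1 was lost without 8 h number 2 (0.56).

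Ribosome assembly genes had mostly risen by 2 h, and 19 of the 35 tested members were in the held class. Of the 35, 33 were called above 0 h at 2 h, 35 at 8 h, and 10 rose between 2 and 8 h (median step 0.41), a count of 4 or 5 without 2 h number 2, 8 h number 1 or 8 h number 2, of 4 after quantile normalization and of 6 with no replicate block. Fbl, the methyltransferase fibrillarin of the nucleolus, read 11.13 and 10.63 at 8 h, against 10.46 and 9.77 at 2 h (step 0.77 ± 0.13, adjusted p = 0.00092). Its arrays did not overlap between the times, and in both pairs it was higher at 8 h. Of 17 translation initiation factors 8 rose and 9 were not called, with 2 to 5 rising without 2 h number 2, 8 h number 1 or 8 h number 2, and 5 with no replicate block. Of 18 aminoacyl-tRNA synthetases, which charge tRNAs for translation, 17 rose (median step 0.79) and 1 was not called, a count of 10 with no replicate block.

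The 23 genes raised further already stood at least 2-fold above 0 h at 2 h and at least doubled again. Lag3, an inhibitory receptor that binds MHC class II, read 11.23 and 11.02 at 8 h, against 8.92 and 8.01 at 2 h (step 2.66 ± 0.24, adjusted p = 1.64e-05). Il21, a cytokine that helps B cells, read 9.49 and 9.70 at 8 h, against 7.14 and 6.75 at 2 h (step 2.64 ± 0.19, adjusted p = 3.66e-06). Both were above their 2 h arrays by over 2 log2 units in each pair. Il21 thus stood 4.90 above 0 h, with a 6.25-fold step. Ccr8, the receptor of CCL1, read 9.58 and 9.67 at 8 h, against 7.72 and 7.08 at 2 h (step 2.23 ± 0.20, adjusted p = 1.27e-05), while its ligand gene Ccl1 fell over the same hours. Tnfrsf9, the costimulatory receptor 4-1BB, read 11.19 and 10.74 at 8 h, against 10.00 and 8.98 at 2 h (step 1.47 ± 0.27). Cxcr5, the receptor that leads T cells to B cell follicles, read 9.49 and 9.05 at 8 h, against 8.65 and 7.39 at 2 h, and its step of 1.26 ± 0.20 was 0.82 without 2 h number 2.

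Several of the others belong to one-carbon and nucleotide metabolism. Shmt2, the mitochondrial serine hydroxymethyltransferase, read 10.87 and 10.68 at 8 h, against 9.82 and 8.97 at 2 h (step 1.38 ± 0.18, adjusted p = 0.000154). Cad, which starts pyrimidine synthesis, and Mthfd1, which interconverts folates, had steps of 1.23 ± 0.14 and 1.23 ± 0.20. Bcat1, which transaminates branched-chain amino acids, had one of 1.71 ± 0.22. The whole list of 23 tested genes had 15 that rose, none that fell and 8 that were not called (median step 0.73). The class held 14 genes after quantile normalization, 14 with an offset of 32, and 15 without 2 h number 1 or 8 h number 2.

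The second group of interest, genes first raised after 2 h, held 305 genes (2.64% of those tested). They lay within 0.5 of 0 h at 2 h without a call, at least doubled between 2 and 8 h, and were called above 0 h at 8 h. Their median difference from 0 h was 0.02 at 2 h and 1.20 at 8 h, as the thresholds require. Dut lies just inside the threshold and Cd81 just outside, both with a step of 1.00. The count was 167 after quantile normalization (143 of the 305 among them), 492 after median centring (299 among them), 198 with an offset of 32 and 486 without 2 h number 1. The size of the class thus moved with the scaling of the arrays. The filter on dim genes let a gene pass through any 2 of the 22 in vivo arrays, Treg and other times included. Of the 305, 39 had both 2 h arrays below the array median and 1 had both 8 h arrays below it. When all 4 compared arrays had to lie above it, 245 of the 305 were in the class.

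DNA replication genes were the most frequent of the listed groups among them, with 15 of the 26 tested. Of the 26, 21 rose, none fell and 5 were not called (median step 1.24), and 1 had been called above 0 h at 2 h. Outside the list, Chek1, a checkpoint kinase of DNA replication, read 8.24 and 8.26 at 8 h, against 5.14 and 5.16 at 2 h (step 3.10 ± 0.29, adjusted p = 1.71e-05), but its 2 h arrays lay below the array median, so that the size of the step is uncertain. In the list, Prim1, the small primase subunit, read 9.24 and 9.15 at 8 h, against 7.31 and 6.88 at 2 h (step 2.10 ± 0.20, adjusted p = 1.86e-05). Both genes were far from overlap, and Chek1 had both its 2 h arrays below the 0 h values of 5.64 and 5.34. Mcm2, a subunit of the replicative helicase, read 11.07 and 10.73 at 8 h, against 9.43 and 8.68 at 2 h (step 1.85 ± 0.18, adjusted p = 1.96e-05). Its partner Mcm7 read 10.12 and 9.82 at 8 h, against 8.62 and 8.00 at 2 h (step 1.66 ± 0.17). Rfc4, of the clamp loader, and Gins1, of the GINS complex, had steps of 1.88 ± 0.19 and 1.85 ± 0.21. Hells, a chromatin remodeller outside the list, read 8.20 and 9.20 at 8 h, against 6.17 and 6.42 at 2 h (step 2.40 ± 0.42, adjusted p = 0.000959). The 2 h arrays of Hells too lay below the array median, so that the size of its step is uncertain. Mitosis genes did not share the step: of 18 tested 1 was called higher (Aurka, 0.53 ± 0.17, not called without 2 h number 1, 8 h number 1 or 8 h number 2, with steps of 0.35 to 0.53), none lower and 17 were not called, and their median step was 0.00. All 18 were called higher at 24 h than at 8 h, a comparison that called 35.8% of all genes (15.5% higher and 20.3% lower).

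G1 cyclins, their kinases and inhibitors were called at about the share of all genes: of 16 tested members 4 rose, when 21.2% of all genes did, none fell and 12 were not called (median step 0.28), and 2 rose without 8 h number 2. Those that rose were the kinases Cdk2, Cdk4 and Cdk6 and the phosphatase Cdc25a, which activates such kinases. Cdk2 read 9.37 and 9.20 at 8 h, against 8.20 and 8.10 at 2 h (step 1.14 ± 0.13, adjusted p = 7.91e-05). Cdk4 read 12.01 and 11.64 at 8 h, against 11.16 and 10.44 at 2 h (step 1.03 ± 0.13, adjusted p = 0.000152). Both kinase genes were higher at 8 h in each pair, and neither overlapped.

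Genes of energy metabolism rose in the same hours. Of 20 tested genes of glycolysis and the pentose phosphate pathway 16 rose, 1 fell and 3 were not called (median step 0.66), with 10 and 9 rising without 2 h number 2 and 8 h number 2. Tpi1, triose phosphate isomerase, read 11.51 and 11.54 at 8 h, against 9.28 and 8.36 at 2 h (step 2.71 ± 0.26, adjusted p = 2.09e-05). Eno3, the muscle-type enolase, read 9.90 and 9.58 at 8 h, against 8.00 and 6.97 at 2 h (step 2.25 ± 0.23, adjusted p = 3.23e-05). Both were more than 4-fold higher at 8 h (6.54-fold and 4.76-fold). The kinases Pfkl, Pgk1 and Pkm had steps of 1.55 ± 0.15, 1.20 ± 0.16 and 1.15 ± 0.17. In the mitochondrion 16 of 17 tested genes of the TCA cycle rose (median step 0.83) and 23 of 24 of the respiratory chain (median step 0.76), with none lower in either list. With no replicate block the respiratory chain count was 13. The mitochondrial ribosome had 12 of 19 tested members that rose, none that fell and 7 that were not called (median step 0.75). Mrps22, of its small subunit, read 9.07 and 9.10 at 8 h, against 8.16 and 7.84 at 2 h (step 1.08 ± 0.18, adjusted p = 0.000654). Cyc1, cytochrome c1 of complex III, read 11.07 and 10.80 at 8 h, against 10.22 and 9.38 at 2 h (step 1.13 ± 0.15, adjusted p = 0.000201). At 2 h 2 TCA cycle genes, 2 respiratory chain genes and 8 mitochondrial ribosome genes had been called above 0 h, and at 8 h 14, 24 and 15 were.

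Protein folding and turnover genes rose alongside. Of 23 tested proteasome genes 22 rose and 1 was not called (median step 0.90). Psmd14, the deubiquitinase of the lid, read 10.35 and 10.26 at 8 h, against 9.17 and 8.90 at 2 h (step 1.27 ± 0.15, adjusted p = 8.75e-05). Of 28 chaperone genes 24 rose and 4 were not called (median step 0.82). Hspe1, the mitochondrial HSP10, read 12.68 and 12.33 at 8 h, against 11.50 and 10.61 at 2 h (step 1.45 ± 0.17, adjusted p = 7.31e-05), and Hspd1, its HSP60 partner, belonged to the genes raised further (1.33 ± 0.24). In both genes the groups did not overlap. Of 23 cholesterol and fatty acid synthesis genes 13 rose and 10 were not called, a count of 7 or 8 without 2 h number 2 or 8 h number 2. Acaca, which makes malonyl-CoA, read 9.38 and 9.50 at 8 h, against 8.17 and 7.84 at 2 h (step 1.44 ± 0.22). The plot of gene lists sets these shares beside the background.

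**Figure D3:**
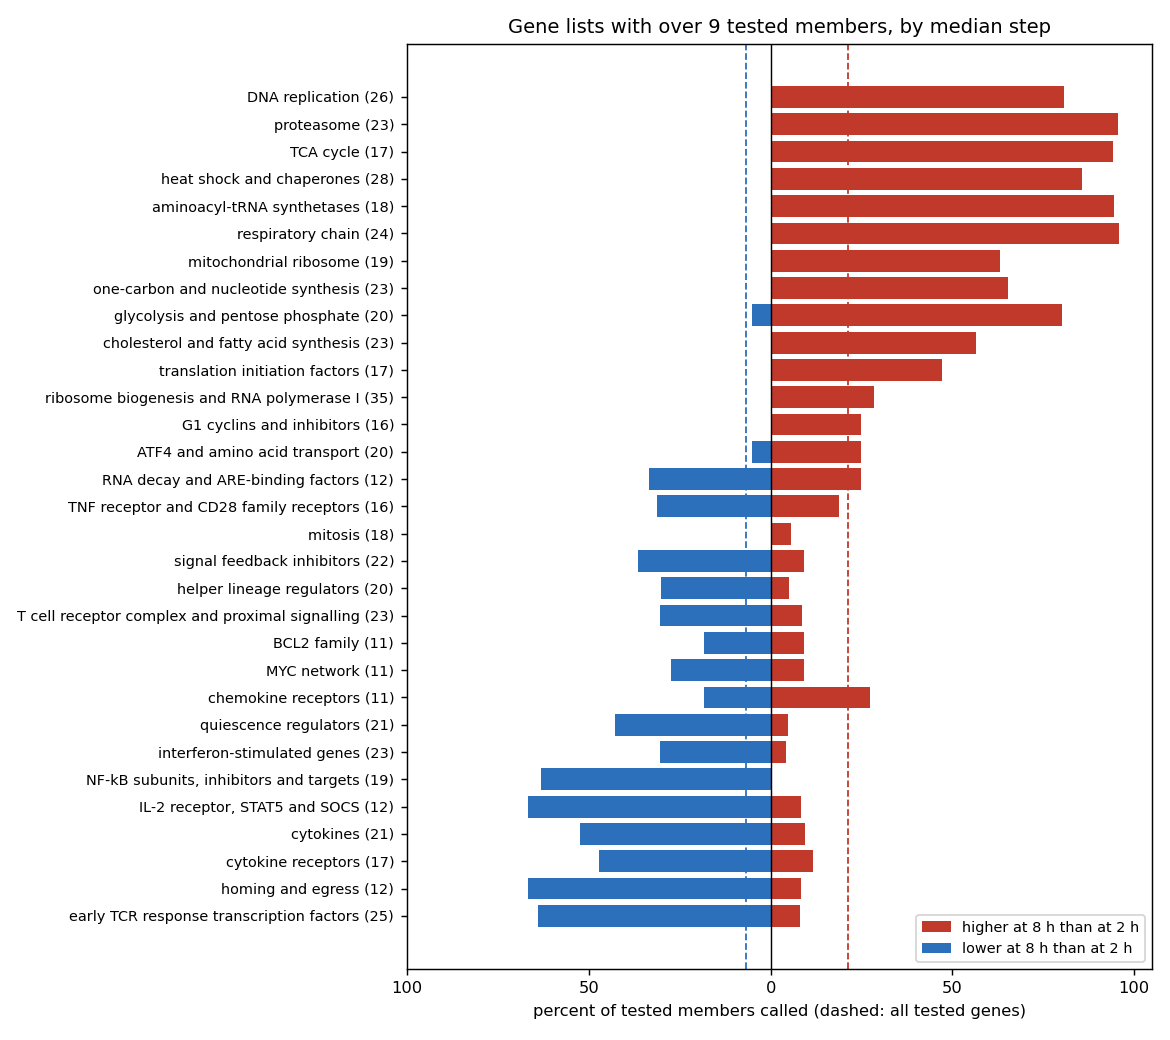
Bars give the percent of tested members of each gene list with over 9 of them (number in brackets) that were called higher (red, right) or lower (blue, left) at 8 h than at 2 h, ordered by median step, and dashed lines mark the shares over all tested genes, 21.2% and 6.84%. Proteasome, respiratory chain, TCA cycle and aminoacyl-tRNA synthetase lists extend furthest to the right, and homing and egress genes, the IL-2 receptor list, early response factors and the NF-kB list furthest to the left.

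Receptors moved in both directions. Of 17 tested cytokine receptors 8 fell, 2 were higher and 7 were not called (median step -0.59). A mixed list held 16 tested genes of the TNF receptor and CD28 families and of other surface molecules. Of these 5 fell, 3 were higher and 8 were not called (median step 0.01). Cd69, Cd44 and Slamf1, which belong to neither family, fell, as did Tnfrsf14 and Fas, while Cd27, Tnfrsf18 and Tnfrsf9 were higher. Il12rb1, the shared chain of the IL-12 and IL-23 receptors, read 9.58 and 9.42 at 8 h, against 8.21 and 7.57 at 2 h (step 1.61 ± 0.21, adjusted p = 0.000153). Tnfsf4, the costimulatory ligand OX40L, had been called at 2 h (0.74) and so lay outside the class, and read 7.89 and 7.58 at 8 h, against 5.74 and 5.65 at 2 h (step 2.04 ± 0.14, adjusted p = 3.07e-06). The groups of both genes were well apart. Both 2 h arrays of Tnfsf4 lay below the array median, so that the size of its step is uncertain. Among the cytokine receptors that fell, Tgfbr2, a chain of the TGF-beta receptor, read 9.22 and 9.19 at 8 h, against 10.24 and 10.38 at 2 h (step -1.10 ± 0.11, adjusted p = 2.02e-05). Il6ra, the IL-6 receptor chain, fell by 1.20. Cd44, an adhesion receptor that marks activated and memory T cells, read 7.20 and 7.39 at 8 h, against 8.09 and 8.13 at 2 h (step -0.82 ± 0.13, adjusted p = 0.000511). Of 9 tested inhibitory receptors 2 were higher, 2 lower and 5 not called. Next to Lag3, Tigit was higher, with 9.24 and 9.06 at 8 h, against 8.46 and 7.70 at 2 h (step 1.07 ± 0.27, adjusted p = 0.00965), a call that was lost without 2 h number 2 (0.74), 8 h number 1 (1.07) or 8 h number 2 (1.07). Cd274, the ligand PD-L1, fell by 0.90 and Btla by 0.80, and neither fall was called without any 1 of the 4 arrays. Apart from receptors, Tdrkh, a Tudor-domain protein known from the piRNA pathway of the germ line, read 8.01 and 7.93 at 8 h, against 5.94 and 5.96 at 2 h (step 2.02 ± 0.14, adjusted p = 3.07e-06). The 2 h arrays of Tdrkh lay below the array median, so that the size of its step is uncertain.

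As a counterpart to the fallen-back genes, promoter windows are shown in the same way for some first raised genes with large steps and a motif. They are Tdrkh (chr3:94412994-94413293, plus strand), with GCGNGGGCG in capitals, Nln, which encodes the peptidase neurolysin (chr13:104109565-104109864, minus strand), with CACGTG, and Ola1, which encodes an Obg-like ATPase (chr2:73214398-73214697, minus strand), with CACGTG.
Tdrkh: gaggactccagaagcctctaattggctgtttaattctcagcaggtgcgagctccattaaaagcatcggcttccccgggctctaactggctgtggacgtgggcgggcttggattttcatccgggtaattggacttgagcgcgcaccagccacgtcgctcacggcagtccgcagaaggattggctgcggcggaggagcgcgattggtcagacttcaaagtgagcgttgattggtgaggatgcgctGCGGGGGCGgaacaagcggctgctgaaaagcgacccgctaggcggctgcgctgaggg
Nln: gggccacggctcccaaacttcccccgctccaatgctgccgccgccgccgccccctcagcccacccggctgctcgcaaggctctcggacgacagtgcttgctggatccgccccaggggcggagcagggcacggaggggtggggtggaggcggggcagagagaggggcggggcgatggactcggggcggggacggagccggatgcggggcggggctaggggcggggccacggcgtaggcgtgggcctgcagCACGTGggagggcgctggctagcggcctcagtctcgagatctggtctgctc
Ola1: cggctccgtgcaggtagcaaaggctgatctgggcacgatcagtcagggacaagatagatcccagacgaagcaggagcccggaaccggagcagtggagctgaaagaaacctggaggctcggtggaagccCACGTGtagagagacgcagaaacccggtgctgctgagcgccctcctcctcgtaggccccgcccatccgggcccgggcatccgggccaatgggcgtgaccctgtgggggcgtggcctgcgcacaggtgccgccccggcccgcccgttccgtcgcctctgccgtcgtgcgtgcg

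Windows were found for 268 of the 305 genes, 318 windows in all. CACGTG was present in 10.69% of them, against 7.15% of all windows, GCGNGGGCG in 8.81%, against 5.55%, and TGACGTCA in 5.66%, against 1.79%. TGANTCA was in 4.72%, against 7.81%, the CArG box in 0.31%, against 1.63%, and the kappa B motif in none of the 318, against 0.41%. These shares were not tested, and here too the windows compared include those of genes outside the tested ones. The 2 other printed genes behaved like the class: Nln read 8.15 and 8.43 at 8 h, against 6.45 and 6.47 at 2 h (step 1.83 ± 0.22), and Ola1 9.33 and 9.50 at 8 h, against 7.68 and 7.80 at 2 h (step 1.68 ± 0.21). The 2 h arrays of Nln lay below the array median.

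In the opposite direction, 88 genes (0.763%) were near their 0 h level at 2 h and at least halved by 8 h. Il7r, the receptor for the survival cytokine IL-7, had the largest fall of all named genes, with 7.28 and 7.38 at 8 h, against 11.05 and 11.70 at 2 h (step -4.04 ± 0.28, adjusted p = 3.07e-06), which is 16.5-fold. The 0 h arrays read 11.12 and 11.68, close to those at 2 h. Dapl1, a death-associated protein homologue known from naive T cells, read 6.14 and 6.36 at 8 h, against 8.74 and 8.80 at 2 h (step -2.52 ± 0.26, adjusted p = 3.23e-05). Pik3ip1, an inhibitor of PI3 kinase, read 6.98 and 6.68 at 8 h, against 9.04 and 8.96 at 2 h (step -2.17 ± 0.20, adjusted p = 1.86e-05). None of the 3 had been called at 2 h, and none overlapped between 8 and 2 h. The 8 h arrays of Dapl1 lay below the array median, so that the size of its fall is uncertain. Cxcr4, the receptor of CXCL12, read 10.06 and 8.95 at 8 h, against 11.79 and 11.25 at 2 h (step -2.01 ± 0.21, adjusted p = 4.29e-05). Btg2, an antiproliferative cofactor of mRNA decay, and Bcl2, the survival factor downstream of IL-7, fell by 1.54 and 1.22.

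**Figure D4:**
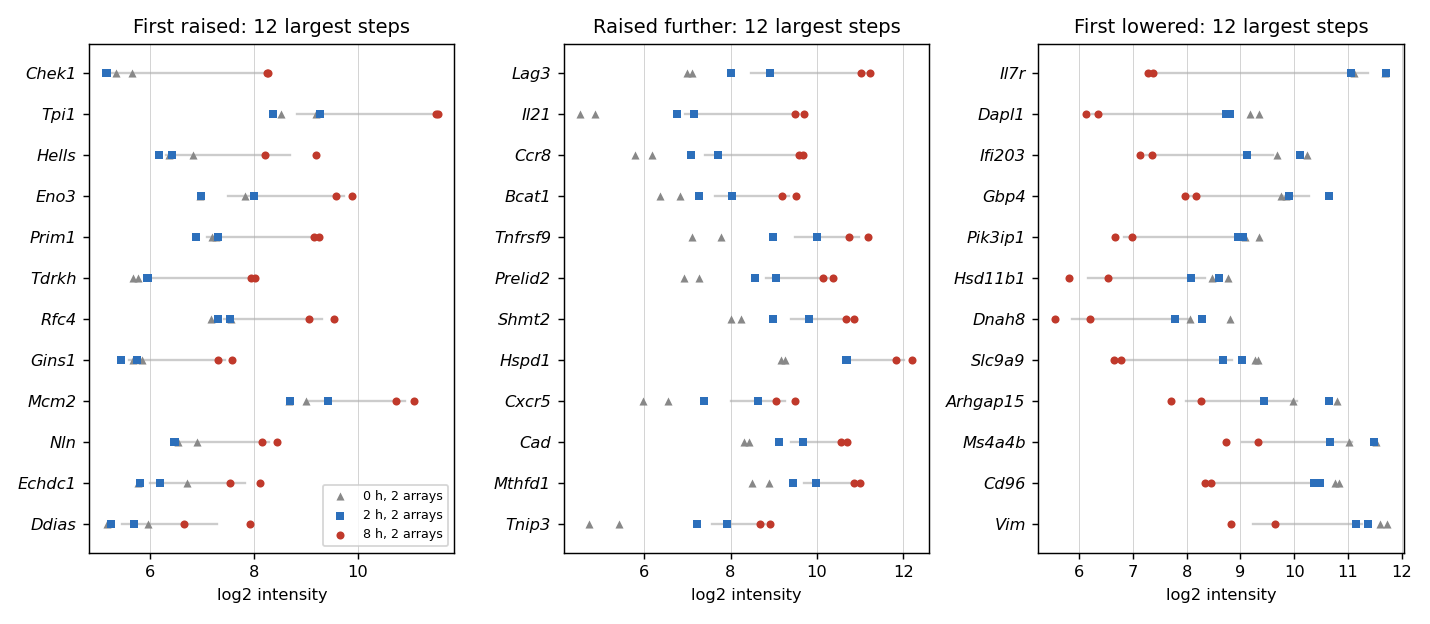
Log2 intensity of each array (x axis) at 0, 2 and 8 h for the 12 genes with the largest step among those first raised (left), raised further (middle) and first lowered (right), with 2 arrays per time. In the left and right panels the 0 h and 2 h points lie near each other, as the class requires, and the 8 h points stand apart, at 8.24 and 8.26 for Chek1 and at 7.28 and 7.38 for Il7r.

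Homing and quiescence genes were often among those that fell. Of 12 tested homing and egress genes 8 fell, 1 was higher and 3 were not called (median step -0.82), and 7 had been called lower than 0 h at 2 h, when 6.75% of all genes were. S1pr1, the receptor that lets T cells leave lymphoid organs, read 8.34 and 8.88 at 8 h, against 10.06 and 11 at 2 h (step -1.92 ± 0.17, adjusted p = 1.45e-05). Itgb7, an integrin chain for the gut, fell by 1.22. The member that was higher was Ccr7, the lymph node homing receptor, with 11.78 and 11.58 at 8 h, against 11.17 and 11.12 at 2 h (0.53 ± 0.16), and its call was lost without any 1 of the 4 arrays (steps of 0.46 to 0.61). Of 21 quiescence regulators 9 fell, 1 was higher and 11 were not called (median step -0.45), and 15 were below 0 h at 8 h. Txnip, which limits glucose uptake, read 9.63 and 9.17 at 8 h, against 11.53 and 11.56 at 2 h (step -2.15 ± 0.19, adjusted p = 1.22e-05).

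Interferon-stimulated genes fell in part: 7 of 23 tested members fell, 1 was higher and 15 were not called (median step -0.46), and 4 fell without 8 h number 2. Ddx58, which encodes the RNA sensor RIG-I, read 7.47 and 7.39 at 8 h, against 9.23 and 9.57 at 2 h (step -1.97 ± 0.18, adjusted p = 1.45e-05). Gbp4, a guanylate-binding protein, read 7.97 and 8.18 at 8 h, against 9.91 and 10.65 at 2 h (step -2.21 ± 0.28, adjusted p = 0.000143). Both genes were also below 0 h at 8 h (differences of -2.56 and -1.73). Of 20 tested regulators of helper lineages 6 fell, 1 was higher and 13 were not called (median step -0.22). Gata3, the factor of type 2 helper cells, read 8.22 and 8.62 at 8 h, against 9.40 and 9.48 at 2 h (step -1.02 ± 0.14, adjusted p = 0.000181). The T cell adaptor Trat1 fell by 2.83, to 8 h arrays that lay below the array median, and the thymocyte signalling protein Themis by 1.67.

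The 49 genes lowered at least 2-fold by 2 h showed no 2-fold return by 8 h. The highest step among them was 0.71, 2 were called higher at 8 h than at 2 h, all 49 were still called below 0 h at 8 h, and 20 were called lower at 8 h than at 2 h. Without 2 h number 2, 9 genes met the criterion of a 2-fold return. Selenop, a selenium transport protein, read 5.87 and 5.79 at 8 h, against 7.66 and 8.32 at 2 h (step -2.16 ± 0.19, adjusted p = 1.22e-05), after a first difference of -1.22 between 2 and 0 h. Its 8 h arrays lay below the array median.

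The later arrays show how long each class lasted. Medians over the 31 fallen-back genes, relative to 0 h, were 1.93 and 1.89 on the 2 h arrays, 0.35 and 0.46 at 8 h, and -0.02 and 0.26 at 24 h. The 191 held genes had medians of 1.50 and 1.24 at 2 h, 1.49 and 1.63 at 8 h, and -0.11 and 0.10 at 24 h. The 305 first raised genes had medians of 0.15 and -0.14 at 2 h, 1.25 and 1.17 at 8 h, and 0.47 and 0.32 at 24 h. At 24 h 172 of the 191 held genes were called lower than at 8 h, and 218 of the 305 first raised genes, when 20.3% of all genes were lower. Of the 305, 92 were still above 0 h at 24 h, among them Chek1 (2.29) and Prim1 (1.93). The share of all tested genes called between 24 h and 0 h was not counted, so that the 92 only describe the class. Of the 88 first lowered genes 78 were higher at 24 h than at 8 h, and Il7r had by then regained 2.78, which left it 1.29 below 0 h (difference -1.29). These differences share the 8 h arrays with the step on which the classes were chosen, and are no independent test.

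**Figure D5:**
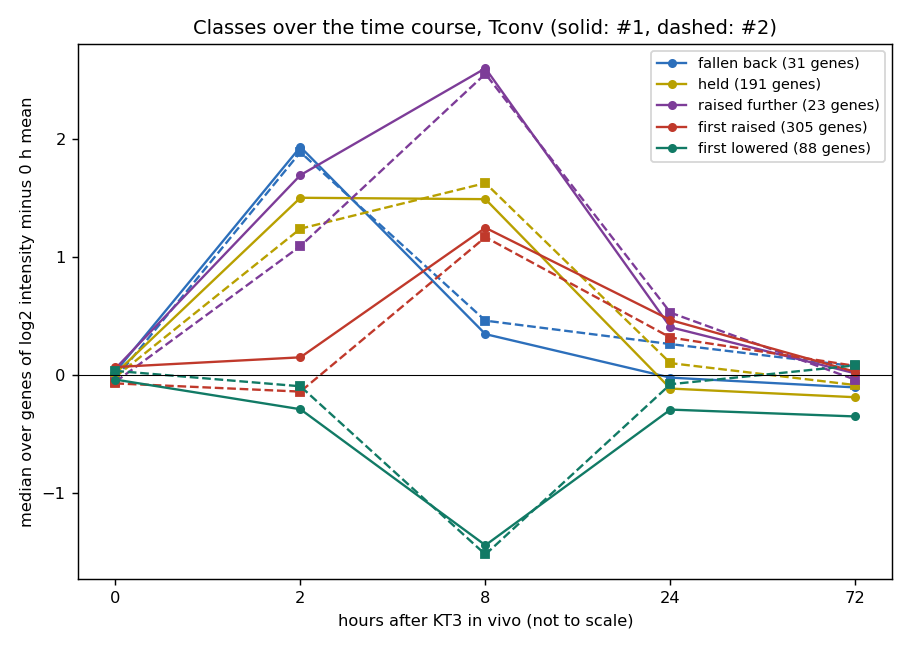
Median over the genes of each class of the log2 intensity minus the 0 h mean (y axis) at 0, 2, 8, 24 and 72 h after KT3 (x axis, not to scale), with array 1 solid and array 2 dashed. Fallen-back genes peak at 2 h (1.93 and 1.89), first raised genes at 8 h (1.25 and 1.17), and at 72 h the array medians of all plotted classes lie between -0.35 and 0.08.

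Treg of the same study were used to see which part of the step differed between the cell types. In Treg 766 genes were called between 8 and 2 h (6.64%), and of the 31 genes that fell back in Tconv 21 were called lower in Treg too (2.8% of all genes were), with a median step of -1.06. Of the 305 first raised in Tconv 116 were called higher in Treg (3.84% of all genes were), with a median of 0.55. The genes were chosen on the Tconv arrays, so that the smaller Treg medians are no test. Tested directly, the step differed between Tconv and Treg for 34 genes (0.295%, of which 0.139% with a higher and 0.156% with a lower step in Tconv), with 1721 at an unadjusted p under 0.05. The replicate numbers paired arrays within each cell type but hardly between them, and the fit used 1 block for both. The count depended on this choice: it was 6 with no replicate block, 1007 with a block of its own in each cell type, and 3, 4 and 0 without 2 h number 2, 8 h number 1 and 8 h number 2. The largest difference was that of Il7r, which read 9.72 and 9.22 at 8 h in Treg, against 10.63 and 10.52 at 2 h, so that the step was 2.94 more negative in Tconv (-2.94 ± 0.39, adjusted p = 0.023). Il21 had a step of 2.64 in Tconv, against 1.14 in Treg (difference 1.50 ± 0.27, adjusted p = 0.0345), but its 4 Treg arrays all lay below the array median, so that the size of its Treg step is uncertain. Cxcr4 had a step of -2.01 in Tconv, against 0.02 in Treg (difference -2.03 ± 0.30, adjusted p = 0.023).

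Markers of other cells and of Tconv themselves were read on the same arrays. Of 49 markers of B cells, macrophages, neutrophils, dendritic cells, NK cells, CD8 T cells, erythroid cells, platelets and plasma cells, 32 were tested and 21 lay below the array median on all 4 arrays, among them every NK cell marker. Their mean level was 6.12 and 5.45 at 8 h, against 6.42 and 5.62 at 2 h, and the log2 of their summed level was 12.1 and 11.3 at 8 h, against 12.4 and 11.5 at 2 h. It was higher on array 1 at both times. Only Cd8b1 was called, with 7.98 and 8.09 at 8 h, against 7.36 and 7.26 at 2 h (step 0.73 ± 0.18), and its call was lost without 2 h number 1 (0.68) or 8 h number 2 (0.57). The 6 tested defining markers of CD4 T cells had a mean of 11.02 and 11.01 at 8 h, against 11.26 and 11.34 at 2 h. Of these Cd3g, Cd3d, Cd3e and Cd4 were called lower, by 0.40 to 0.49 (differences of -0.49 for Cd3g and -0.40 for Cd4), and 1 or 2 of the 4 calls were left without any 1 of the arrays. Foxp3, which the gate should exclude, read 7.20 and 7.02 at 8 h, against 7.06 and 7.09 at 2 h. Per the labels, the cells of 8 h number 1 and 2 h number 2 went through 2 sorts and those of 8 h number 2 and 2 h number 1 through 1. With the number of sorts as a covariate and no block, 2453 genes were called. The part of these markers in the step was not tested.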

How the data were processed

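RNA of splenic Tconv and Treg was measured on Affymetrix mouse gene ST 1.0 arrays, per the labels. The deposited values are linear intensities, 1 per transcript cluster and array, which the authors made by RMA in GenePattern per the series' design text, and with Affymetrix Power Tools per the submitters' processing notes. No version is named there, nor whether RMA was run on the 42 arrays as 1 set. RMA removes background and equalises the arrays' distributions of probe intensities, so that a change of total RNA per cell cannot be read from these values. The distributions of the deposited values were not equal. The range between the quartiles of log2 intensity was 2.77 and 2.93 at 8 h in Tconv, against 2.51 and 2.55 at 2 h. The part of this difference in the step was not tested.

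Intensities (4.8403 to 29756.3596) were turned into log2 with no offset. Of 24922 clusters 21425 carried 1 symbol in the platform annotation, 1399 several and 2098 were not listed. For the 921 symbols with several clusters the cluster of highest mean intensity stood for the gene, which gave 19752 genes. A gene was tested where it lay above the array median on at least 2 of the 22 in vivo arrays, which left 11536 and removed 8216. Array medians of the 4 arrays compared were 89.0 to 99.8.

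limma 3.58.1 (R 4.3.3) was fitted across all tested genes to the 22 in vivo arrays, with a mean for each of the groups and the replicate number as a common block, with Benjamini-Hochberg adjustment of the p-values across the 11536 genes. The 22 arrays include the control (IgG) arrays of Tconv and of Treg at 24 h. The residual degrees of freedom were 9 and the prior ones 4.355. The pairing comes from the numbers in the titles: differences between number 1 and number 2 correlated at 0.664 to 0.781 between the 10 pairs of Tconv times, at 0.418 to 0.695 between the 10 pairs of Treg times and at -0.132 to 0.357 (median 0.128) over the 25 pairs of a Tconv with a Treg group. The numbers thus paired arrays within each cell type, and the block common to both does not describe the difference between the cell types well. Classes used a log2 difference of 1 as a large change and one under 0.5 without a call as near 0 h. The fit was also run on simulated data, drawn from the same model with independent noise. Such data cannot show how the common block performs on these arrays. Tables and plots were made with Python 3.11.15, pandas 2.3.3, numpy 2.4.6 and matplotlib 3.10.9.

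The comparison, the gene lists (46 lists, 666 tested members) and the classes were chosen with earlier results of these data known. Genes were named by rule: the 15 largest called rises and falls, the 12 largest steps of each class, up to 5 called members of each list, all members of the early response, cytokine, NF-kB and feedback lists, and the 6 largest differences from Treg each way. Predicted genes, RIKEN clones, small RNAs and antigen receptor segments were left out. Il2ra, the genes on either side of a threshold and Foxp3, a marker of the gate, were named in addition. Promoter windows are those of RefSeq (GRCm38.p6), searched for 6 motifs on both strands. Alternatives were no block, a block in each cell type, all arrays, Tconv arrays alone, the number of sorts as covariate, quantile normalization, median centring, an offset of 32, other filters on dim genes, a variance trend and each array left out.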

Additional observations from a re-analysis of the deposited data

Results flagged for a closer look

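For 12 genes the step between 2 and 8 h in Tconv differed from the step in Treg by the test of the difference itself, the interaction term of the limma fit (adjusted p over 11536 genes). They are the 6 largest differences in each direction. The number of such genes was 34 with the block common to both cell types, 6 with no replicate block and 1007 with a block of its own in each cell type, and between 0 and 45 when 1 array was left out, so that the list depends on the model. The numbers paired arrays within each cell type and hardly between them, which 1 common block does not describe.

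Among those with the lower step in Tconv, Il7r stood first, with steps of -4.04 in Tconv and -1.11 in Treg (difference -2.94 ± 0.39, adjusted p = 0.023). The chemokine receptor Cxcr4 had steps of -2.01 in Tconv and 0.02 in Treg (difference -2.03 ± 0.30, adjusted p = 0.023), and read 10.94 and 10.27 at 8 h in Treg, against 10.68 and 10.49 at 2 h, where the arrays overlapped. Dapl1 differed by -1.94 ± 0.37 (adjusted p = 0.0492), with steps of -2.52 in Tconv and -0.58 in Treg. Vim, the intermediate filament vimentin, differed by -1.72 ± 0.27 (adjusted p = 0.0241), with steps of -2.02 in Tconv and -0.31 in Treg. Ddx58 differed by -1.70 ± 0.25 (adjusted p = 0.023) and Irgm1 by -1.54 ± 0.29 (adjusted p = 0.0492). In Treg Ddx58 had a step of -0.27 and Irgm1 one of -0.47, against -1.97 and -2.00 in Tconv. In Treg Irgm1 read 11.29 and 11.02 at 8 h, against 11.64 and 11.60 at 2 h.

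Among those with the higher step in Tconv, the cell cycle kinase Wee1 had steps of 1.14 in Tconv and -0.50 in Treg (difference 1.64 ± 0.25, adjusted p = 0.023). In Treg Wee1 read 8.30 and 8.14 at 8 h, against 8.94 and 8.50 at 2 h, so that the fitted steps had opposite signs. Il21 differed by 1.50 ± 0.27 (adjusted p = 0.0345), with 5.79 and 5.82 at 8 h in Treg, against 4.62 and 4.71 at 2 h. These Treg arrays all lay below the array median, as did those of Dapl1 and Tnfsf4, so that the sizes of these 3 differences are uncertain. Wdhd1, a replication fork protein, had steps of 1.40 in Tconv and -0.09 in Treg (difference 1.49 ± 0.26, adjusted p = 0.0345). Cyp20a1, of the cytochrome P450 family, differed by 1.38 ± 0.21 (adjusted p = 0.023), with steps of 1.56 in Tconv and 0.19 in Treg. Tnfsf4 differed by 1.33 ± 0.20 (adjusted p = 0.023), with steps of 2.04 in Tconv and 0.71 in Treg. Adk, adenosine kinase, differed by 1.27 ± 0.23 (adjusted p = 0.0345), with steps of 1.26 in Tconv and -0.01 in Treg.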

How the results depend on the processing

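The step count was 3233 as reported. It was 1537 in a fit of all 42 arrays (1163 higher and 374 lower) and 5134 (1566 lower) with a block of its own in each cell type, an alternative chosen after seeing the data. With no replicate block it was 2218, and 38 of the named genes lost their call when the pairing was left out. The count of lower genes was 1455 with Tconv arrays alone and 466 after median centring. Without 1 of the 4 arrays the step count was 1665 to 2517, with 1266 to 1926 higher and 399 to 591 lower, the fallen back count 25 to 55, the held count 164 to 299, the raised further count 15 to 27, the first raised count 256 to 486, the count lowered early and recovered 0 to 9, and the difference from Treg count 0 to 45. There the lone array at its time is assumed to vary like the other groups. After quantile normalization 50 genes had fallen back, 14 were raised further and 167 first raised. Median centring gave 492 first raised, and the offset of 32 gave 198 first raised and 14 raised further. The difference from Treg count was 34 as reported, 6 with no block, 1 with all arrays, 5 with sorts as covariate, 12 after median centring, 9 with no filter, 53 with the offset and 1007 with the separate block. Other settings kept these counts within 1.5 times. No called gene among those named reversed its direction under any alternative run. Of the 274 named genes 221 were called, and 134 of those lost their call under none. The cause of these shifts was not tested. Dim genes close to the array median, and 2 arrays at each time, limit what can be called.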

Other observations

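Further lists were called as follows, when 21.2% of all genes were higher and 6.84% lower. Of 23 tested genes of the T cell receptor complex and its proximal signalling 7 fell, 2 were higher and 14 were not called (median step -0.23), and 14 fell after quantile normalization but 3 with no replicate block. Lcp2, the adaptor SLP-76, read 9.99 and 10.18 at 8 h, against 10.90 and 11.12 at 2 h (step -0.92 ± 0.11, limma adjusted p = 9.85e-05). Of 8 GIMAP GTPases, a family of lymphocyte survival proteins, 1 rose and 7 were not called. It was Gimap7, with 9.50 and 9.37 at 8 h, against 8.49 and 7.99 at 2 h (step 1.20 ± 0.15, limma adjusted p = 0.000117). Of 11 tested BCL2 family genes 2 fell, 1 was higher and 8 were not called. Beside Bcl2, the one that fell was Bcl2l11, which encodes the death-promoting BIM, with 9.20 and 9.05 at 8 h, against 10.31 and 10.12 at 2 h (step -1.09 ± 0.15, limma adjusted p = 0.000185). Of 6 tested cytotoxic genes 1 fell, Prf1, which encodes perforin (step -1.03 ± 0.19, limma adjusted p = 0.00132).

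Of 11 tested MYC network genes 3 fell, 1 was higher and 7 were not called. Mxd4 and Mnt, which encode repressors that compete with MYC for its partner MAX, fell by 0.66 and 0.53, and Myc itself fell. Of 20 tested ATF4 and amino acid transport genes 5 rose, 1 fell and 14 were not called. Asns, asparagine synthetase, read 8.37 and 7.64 at 8 h, against 6.96 and 6.08 at 2 h (step 1.49 ± 0.29, limma adjusted p = 0.00203). The serine synthesis genes Psph and Psat1 had steps of 0.86 ± 0.16 and 0.91 ± 0.14. Of 17 tested Treg signature genes 2 fell, 2 were higher and 13 were not called.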
